A study of Mus musculus with 6 samples.

Results

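The genes described here encode receptors for glutamate, GABA and glycine in the autonomic ganglia of newborn mice. They were taken by symbol from the gene list of the deposited tables, as every AMPA (Gria), NMDA (Grin), kainate (Grik), delta (Grid) and metabotropic (Grm) glutamate receptor gene, every GABA-A (Gabr) and GABA-B (Gabbr) receptor gene and every glycine receptor gene (Glra and Glrb). This gave 52 genes of 32285: 7 NMDA, 4 AMPA, 5 kainate, 2 delta, 8 metabotropic glutamate, 19 GABA-A, 2 GABA-B and 5 glycine receptor genes.

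AMPA, NMDA and kainate receptors are cation channels built of 4 subunits and opened by glutamate. NMDA receptors need the Grin1 subunit, and AMPA receptors that hold an edited Gria2 subunit pass little calcium. GABA-A and glycine receptors are chloride channels of 5 subunits, whereas GABA-B receptors are heterodimers of Gabbr1 and Gabbr2 that act through G proteins, as do the metabotropic glutamate receptors. The delta receptors resemble the other glutamate receptor subunits but are not known as ordinary glutamate-gated channels and bind synaptic organisers of the cerebellin family. Fast transmission in autonomic ganglia is classically cholinergic and runs through nicotinic receptors, so the genes of the other fast transmitters are of interest mainly for what ganglionic neurons and glia could additionally sense.

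The study compared the neurons of 3 sympathetic ganglia (stellate, coeliac, lumbar), the parasympathetic sphenopalatine ganglion and the pelvic ganglion by single-cell RNA sequencing. All mice were at postnatal day 5. They carried a Cre transgene on a bacterial artificial chromosome and the Cre-dependent RosatdT reporter, which marks every cell that ever expressed the Cre. No treatment is named for them, and there was no group without the Cre transgene and the reporter. The stellate, sphenopalatine and first pelvic library were made in round 1 with version 2 of the 10x Genomics chemistry and 10000 cells loaded, and the coeliac, lumbar and second pelvic library in round 2 with version 3 and 5300 cells loaded. Round, chemistry and facility therefore cannot be told apart, and each ganglion has 1 library except the pelvic ganglion, which has 2. The rounds were also sequenced at different facilities. The pups were of both sexes, and how many went into a library is not given in the sources used here.

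Of 30777 droplets, 21442 passed the limits on genes and mitochondrial reads, and cells were sorted by marker level into 7052 neurons (237 to 2724 per library), 8468 glia (574 to 2899 per library) and 5696 other cells, while 226 with both kinds of marker were left out. The median depth of a neuron lay between 26651 and 108598 UMIs and that of a glial cell between 3522 and 12151. A set of 6 neuronal genes that had no part in the choice, among them Snap25, Syt1, Nefl, Prph and Elavl4, stood in the glia at a median of 3.26% to 20.6% of their neuronal level in the same library, the highest in the stellate library. This share is the measure used here for neuronal RNA that is not from the glia themselves. Glial levels below are given without subtracting it, also for genes high in neurons such as Gria2, Grin1 and Gabbr1. Levels are CPM, the UMIs of a gene scaled to a fixed total, over the summed UMIs of a class in a library, with exact Poisson intervals that cover counting error only. A UMI here tags the 3′ end of a transcript, so levels were not divided by length. Fewer expressing cells and less RNA per cell cannot be told apart in such sums, and libraries of a round shared at most 94 cell barcodes.

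Of the 52 genes, 19 reached 10 CPM in the neurons or the glia of at least 1 library, 17 of them in neurons and 12 in glia. The 33 others stayed below that in both, 16 of them below 1 CPM everywhere, and Gabra6, Gabrp and Glra4 had no UMI in any of the 7052 neurons or 8468 glia. All 4 AMPA and both GABA-B receptor genes were among the 19, as against 4 of 19 GABA-A, 3 of 5 kainate, 2 of 7 NMDA, 1 of 5 glycine and 1 of 8 metabotropic genes. That level was reached in the neurons of all 6 libraries by 10 genes and in the glia of all 6 by 5 genes. The glial counts were taken without subtracting neuronal RNA. Gabrg3 entered them only through the sphenopalatine glia, at 10.2 CPM against 112 CPM in the neurons there, where the share of neuronal RNA was 13.1%.

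**Figure D1:**
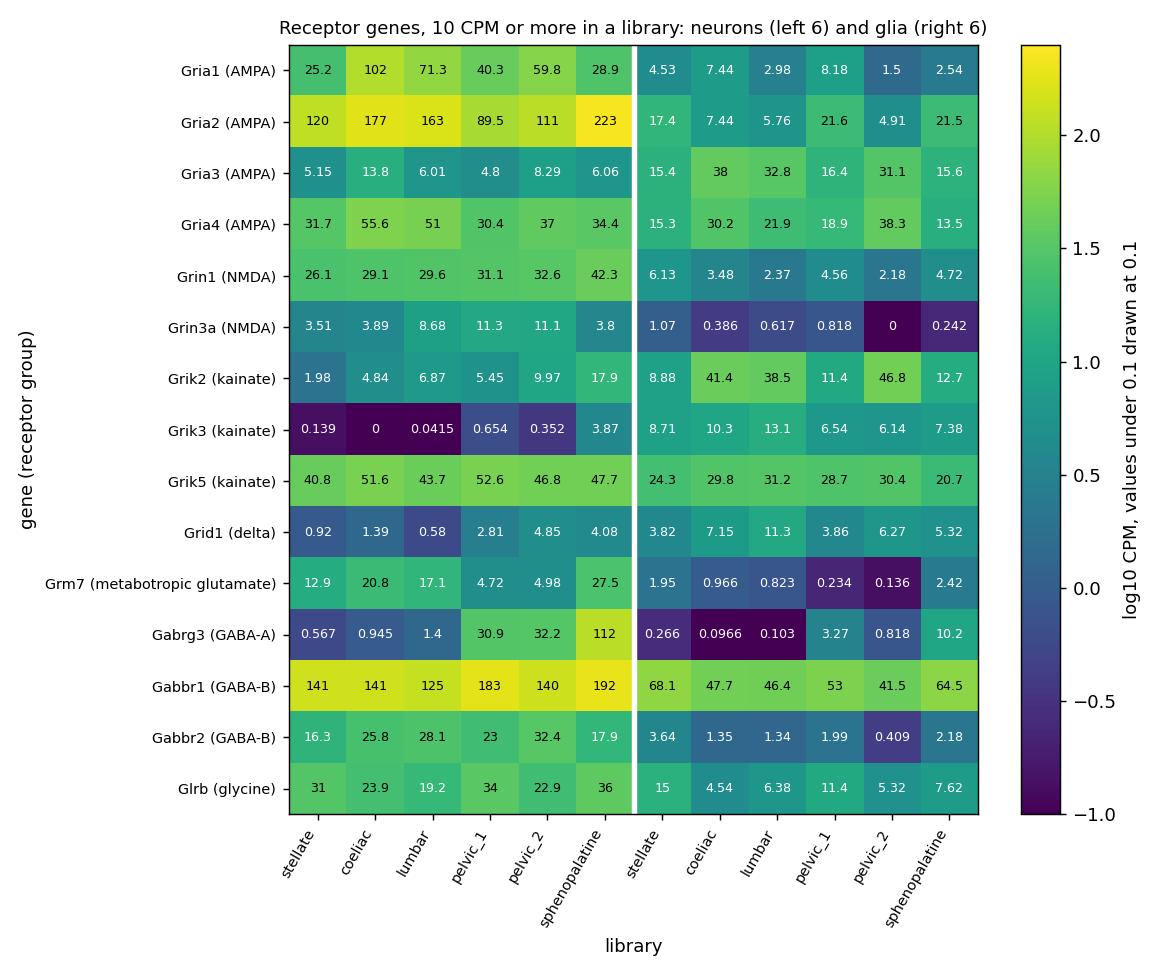
Level in CPM of 15 of the 19 genes at 10 CPM or more, by library, in summed neurons (left 6 columns) and summed glia (right 6 columns), with the value printed in each cell and a log colour scale. Gabbr1 stood between 125 and 192 CPM in the neurons of the 6 libraries, and between 41.5 and 68.1 CPM in the glia.

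The promoters of 5 genes are shown, whose levels set ganglia, pelvic neuron types or glia apart below. Each runs from 250 bases before to 50 after the RefSeq transcription start (assembly GRCm38.p6), 5′ to 3′ on the gene's strand, with every CG pair in capitals. Gabrg3 (chr7:57387166-57387465, minus strand) and Gabra5 (chr7:57510010-57510309, minus strand) belong to the same GABA-A gene cluster, and Grin2c (chr11:115267194-115267493, minus strand) marked a set of pelvic neurons. Grik2 (chr10:49788705-49789004, minus strand) and Grik3 (chr4:125490446-125490745, plus strand) were higher in glia.
Gabrg3: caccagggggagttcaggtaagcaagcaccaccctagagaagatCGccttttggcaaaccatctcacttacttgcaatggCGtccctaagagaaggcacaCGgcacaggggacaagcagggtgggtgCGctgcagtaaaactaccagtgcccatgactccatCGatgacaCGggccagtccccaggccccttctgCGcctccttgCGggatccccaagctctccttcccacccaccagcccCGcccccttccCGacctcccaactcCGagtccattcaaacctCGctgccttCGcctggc
Gabra5: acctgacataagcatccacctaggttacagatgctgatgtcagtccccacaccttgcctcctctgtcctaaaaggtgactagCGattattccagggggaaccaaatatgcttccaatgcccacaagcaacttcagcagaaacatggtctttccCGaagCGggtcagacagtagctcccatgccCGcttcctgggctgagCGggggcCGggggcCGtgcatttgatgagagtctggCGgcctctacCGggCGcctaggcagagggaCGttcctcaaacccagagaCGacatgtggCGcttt
Grin2c: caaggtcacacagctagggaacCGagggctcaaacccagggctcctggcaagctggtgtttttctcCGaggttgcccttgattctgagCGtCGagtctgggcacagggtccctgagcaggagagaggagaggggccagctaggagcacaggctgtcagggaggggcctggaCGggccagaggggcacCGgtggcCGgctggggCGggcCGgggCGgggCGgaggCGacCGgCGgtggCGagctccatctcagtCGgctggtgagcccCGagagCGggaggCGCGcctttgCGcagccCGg
Grik2: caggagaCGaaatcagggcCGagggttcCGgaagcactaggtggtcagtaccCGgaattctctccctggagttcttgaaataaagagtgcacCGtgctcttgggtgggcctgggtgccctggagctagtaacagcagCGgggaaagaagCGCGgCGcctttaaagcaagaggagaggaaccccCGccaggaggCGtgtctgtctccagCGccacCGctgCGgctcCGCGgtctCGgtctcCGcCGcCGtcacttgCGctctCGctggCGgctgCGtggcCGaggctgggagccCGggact
Grik3: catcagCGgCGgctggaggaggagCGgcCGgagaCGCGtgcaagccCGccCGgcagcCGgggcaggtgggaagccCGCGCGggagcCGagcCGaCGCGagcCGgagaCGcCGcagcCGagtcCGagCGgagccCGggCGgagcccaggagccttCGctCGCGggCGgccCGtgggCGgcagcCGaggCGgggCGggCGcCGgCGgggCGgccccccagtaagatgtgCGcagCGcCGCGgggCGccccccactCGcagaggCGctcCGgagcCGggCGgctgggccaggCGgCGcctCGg

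The windows held 13 CG pairs for Gabrg3 and for Gabra5, 22 for Grin2c, 26 for Grik2 and 50 for Grik3. Of all 32851 promoters of that length, 0.855% held as many as Grik3 or more, against 37.9% for Gabrg3. The 43 promoters of 36 of the 52 genes that the RefSeq table held had a median of 11 CG pairs, and all promoters a median of 7.

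Gria2, the AMPA receptor subunit that limits calcium entry, was the glutamate receptor gene with the highest level in the neurons of every library. It had 120 CPM in stellate, 177 in coeliac, 163 in lumbar, 89.5 and 111 in the pelvic libraries and 223 CPM in sphenopalatine neurons. Its glial level, with no neuronal RNA subtracted, ran from 4.91 to 21.6 CPM, below every neuronal value. Gria1 stood at 25.2 CPM in stellate, 102 in coeliac, 71.3 in lumbar, 40.3 and 59.8 in the pelvic libraries and 28.9 CPM in sphenopalatine neurons, and between 1.50 and 8.18 CPM in glia, so that its classes did not overlap either. Gria4 ranged from 30.4 to 55.6 CPM in neurons and from 13.5 to 38.3 CPM in glia, which overlap. Gria3 went the other way, with 4.80 to 13.8 CPM in neurons and 15.4 to 38.0 CPM in glia, again without overlap.

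Grin1, the obligatory NMDA receptor subunit, was measured at 26.1 CPM in stellate, 29.1 in coeliac, 29.6 in lumbar, 31.1 and 32.6 in the pelvic libraries and 42.3 CPM in sphenopalatine neurons, and at 2.18 to 6.13 CPM in glia. Partner subunits stood lower. Grin2a and Grin2b, which pair with Grin1 at many brain synapses, did not exceed 0.44 and 0.28 CPM in the neurons of any library. Grin2d reached 4.93 CPM and Grin3a 11.3 CPM in neurons, both in a pelvic library, and Grin2c is described with the pelvic neurons.

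Among the kainate receptor genes, Grik5, which does not form working channels on its own and needs a subunit of the Grik1 to Grik3 kind, stood between 40.8 and 52.6 CPM in neurons and between 20.7 and 31.2 CPM in glia. Its partner genes were split between the classes. Grik1 had 1.79 to 7.67 CPM in neurons and at most 1.69 CPM in glia, whereas Grik3 had 6.14 to 13.1 CPM in glia and at most 0.65 CPM in the neurons of every library but the sphenopalatine one, where it reached 3.87 CPM.

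Only Grm7, a receptor of low glutamate affinity found on presynaptic terminals in the brain, passed 10 CPM among the metabotropic genes. It measured 12.9 CPM in stellate, 20.8 in coeliac, 17.1 in lumbar, 4.72 and 4.98 in the pelvic libraries and 27.5 CPM in sphenopalatine neurons. Grm4 followed with at most 2.21 CPM and Grm5 with at most 1.03 CPM in neurons. Grm6, known from retinal bipolar cells, had 1 UMI in all.

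Gabbr1, the ligand-binding GABA-B subunit, was measured at 141 CPM in stellate, 141 in coeliac, 125 in lumbar, 183 and 140 in the pelvic libraries and 192 CPM in sphenopalatine neurons, with a UMI in 90.5% to 98.8% of neurons. Its partner Gabbr2 was measured at 16.3 to 32.4 CPM in neurons and at 0.41 to 3.64 CPM in glia. In glia Gabbr1 held 41.5 to 68.1 CPM, so both receptor partners were at 10 CPM or more in neurons alone.

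Gabrg3, a GABA-A gamma subunit, was among the GABA-A genes at 10 CPM or more and is described with the ganglia. Among the subunits below that level, the highest neuronal values were 5.16 CPM for Gabra5, 4.30 for Gabrb1, 3.64 for Gabra2, 3.61 for Gabra3, 2.22 for Gabrg1 and 0.73 for Gabrb2. Alpha and beta subunits are both needed for the usual GABA-A receptor. Glrb, the glycine receptor beta subunit that binds gephyrin, stood between 19.2 and 36.0 CPM in neurons, while the alpha genes Glra1, Glra2 and Glra3 did not exceed 0.82 CPM there. The beta subunit does not form a channel alone.

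Many GABA-A genes lie in clusters (GENCODE M21, GRCm38). Gabrg3 (chr7:56716465-57387188) and Gabra5 (chr7:57407672-57510059) are neighbours on the same strand. Gabrg1 (chr5:70751047-70842617), Gabra2 (chr5:70957597-71095849), Gabra4 (chr5:71569749-71658308) and Gabrb1 (chr5:71658113-72149037) form another cluster, of which no gene passed 4.30 CPM in neurons. Gabra4 and Gabrb1 overlap at their starts on opposite strands, and how reads were assigned by strand is not given in the sources used here.

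Neurons and glia were compared over the 6 libraries, with the library as a block, by the quasi-likelihood test of edgeR with Benjamini-Hochberg adjustment over 14019 genes. Of the 27 receptor genes that passed the filter on low counts, 19 were higher in neurons, 6 were higher in glia, among them Grik3, Grik2, Gria3, Grid1 and Gabre, and 2, among them Gabra3, were not called. Of all genes tested, 75.2% were called, 37.8% higher in neurons and 37.4% higher in glia. The median log2 fold change was 2.45 over the 27 genes and 0.01 over all genes. Genes that pass a filter because 1 class is high had to differ, and 25 of the 52 were not tested.

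On the neuronal side, the log2 fold change was 3.92 ± 0.29 (SE) for Grm7 (adjusted p = 9.46e-06), 3.81 ± 0.44 for Gabbr2 (adjusted p = 9.05e-05) and 3.74 ± 0.42 for Gria2 (adjusted p = 7.8e-05). Each of these was higher in the neurons of 6 of 6 libraries. Grin3a at 3.69 ± 0.54, Gabrg3 at 3.68 ± 0.40 and Gria1 at 3.66 ± 0.41 followed. Grin1 was at 3.15 ± 0.24, whereas Gabbr1 at 1.62 ± 0.12, Gria4 at 0.95 ± 0.17 and Grik5 at 0.88 ± 0.10 differed by less. Gria4 was higher in the neurons of 5 of 6 libraries, the exception being the second pelvic one with 37.0 CPM in neurons and 38.3 in glia. Gabra3 was not called, with a log2 fold change of 0.91 ± 0.42 (adjusted p = 0.0798). It was called without the second pelvic library, at 1.35 (adjusted p = 0.00493). Over all alternatives its adjusted p ran from 0.00493 to 0.316.

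On the glial side, Grik3 stood at 8.71 CPM in stellate, 10.3 in coeliac, 13.1 in lumbar, 6.54 and 6.14 in the pelvic libraries and 7.38 CPM in sphenopalatine glia, above the neurons of the same library in 6 of 6. The log2 fold change from glia to neurons for Grik3 was -4.51 ± 0.98 (adjusted p = 0.00316), for Gria3 -1.66 ± 0.15 (adjusted p = 2.19e-05) and for Gabre, a GABA-A epsilon subunit, -3.11 ± 0.38 (adjusted p = 0.000131), the last at 1.69 to 5.99 CPM in glia.

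Grik2 was higher in glia in 5 of 6 libraries, at -1.70 ± 0.44 (adjusted p = 0.00755), and the sphenopalatine library had 17.9 CPM in neurons and 12.7 in glia. Within the libraries of round 1 its change was -0.76 (adjusted p = 0.225), and the adjusted p over all alternatives ran from 7.45e-05 to 0.225. Grid1, at -1.49 ± 0.55 (adjusted p = 0.0364), lost its call under 5 of the 15 alternatives that tested it. Among these were the fits without the stellate library, at -1.38 (adjusted p = 0.0904), and without the coeliac one, at -1.31 (adjusted p = 0.0974). Over all alternatives the adjusted p of Grid1 ran from 0.00572 to 0.12.

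**Figure D2:**
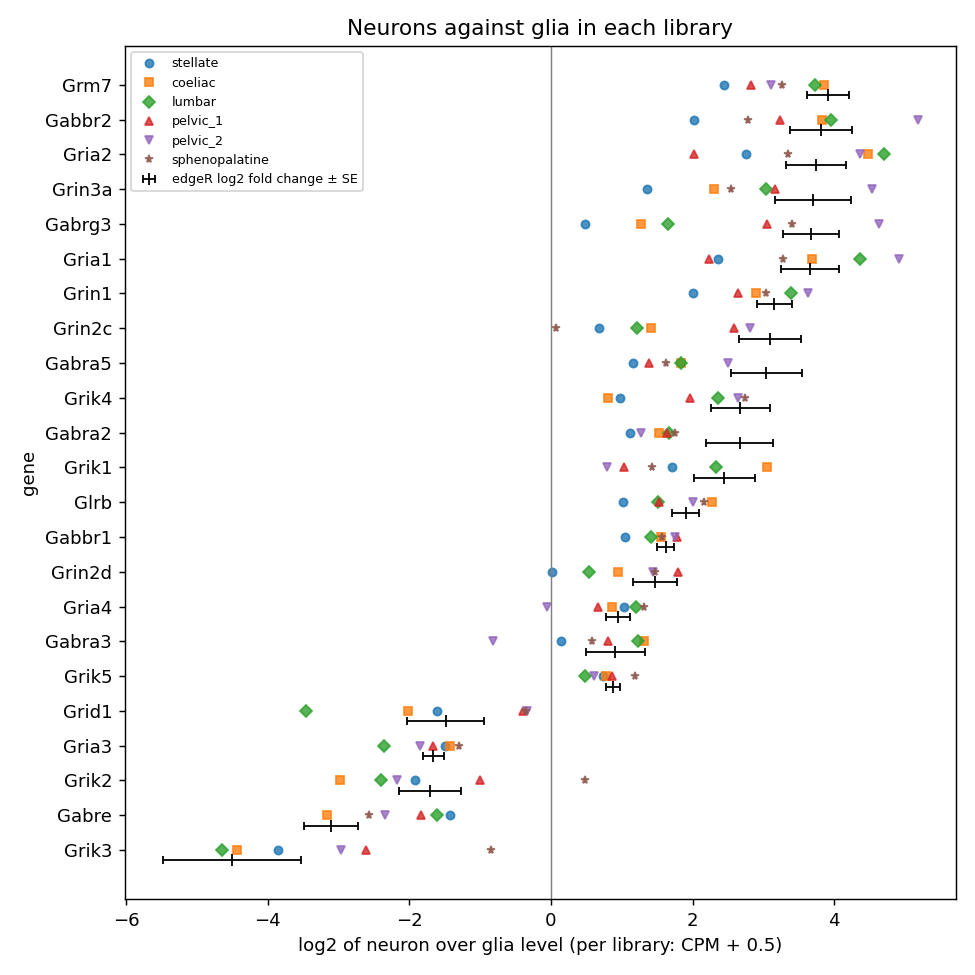
Log2 of the neuronal over the glial level for 23 of the 27 receptor genes tested, 1 symbol per library (CPM with 0.5 added to both classes), with the fitted edgeR log2 fold change and its standard error drawn below each row of symbols. Symbols right of the line at 0 mark a higher level in neurons, and Gria3, Grik3, Grid1 and Gabre lie left of it in all 6 libraries.

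Some glial levels moved with the round. Glial Grik3 did not, at 6.54 to 8.71 CPM in round 1 and 6.14 to 13.1 CPM in round 2, which overlap. Grik2 measured 8.88, 11.4 and 12.7 CPM in the glia of round 1 and 38.5, 41.4 and 46.8 CPM in those of round 2. The 2 pelvic libraries, which are the same ganglion, split the same way, with 11.4 CPM in round 1 and 46.8 CPM in round 2. Glial Gria3 was at 15.4 to 16.4 CPM in round 1 and 31.1 to 38.0 CPM in round 2. For both genes the rounds did not overlap. The glial gene Erbb3, which was not used to choose glia, was at 111 to 130 CPM in round 1 and 247 to 259 CPM in round 2, and the median depth of a glial cell at 3522 to 4725 and 10470 to 12151 UMIs. In contrast, glial Gabbr1 was lower in round 2, with 41.5 to 47.7 CPM against 53.0 to 68.1 CPM. The share of neuronal RNA in glia split by round too, at 12.1% to 20.6% in round 1 and 3.26% to 6.61% in round 2. Because of these splits, glial levels were not compared between ganglia of different rounds. The part of chemistry, facility, depth and neuronal RNA in them was not tested.

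**Figure D3:**
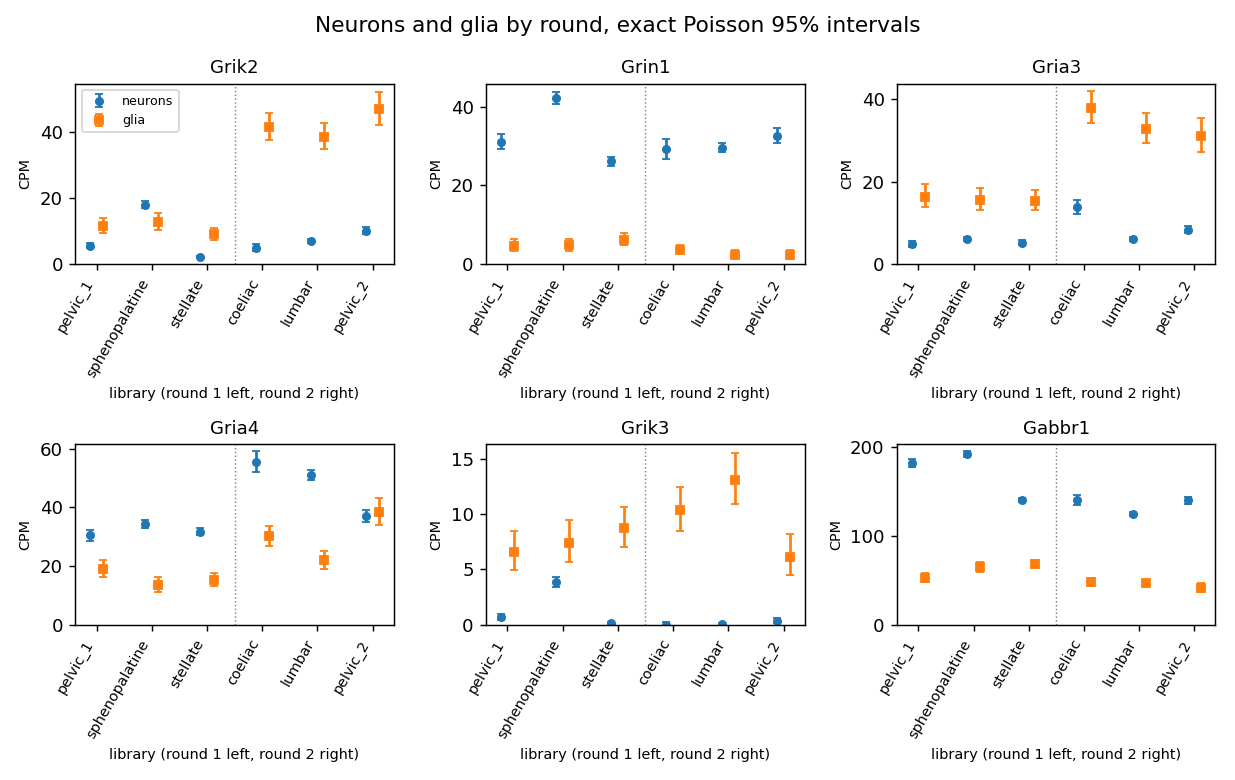
Level in CPM of 6 receptor genes in neurons (circles) and glia (squares) of each library, round 1 left of the dotted line and round 2 right of it, with exact Poisson 95% intervals. Glial Grik2 lies at 8.88 to 12.7 CPM in round 1 and at 38.5 to 46.8 CPM in round 2.

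Ganglia were compared within a round by the ratio of their neuronal levels, since 1 library per ganglion allows no test. A gene counted as different past 3-fold, where its higher library had at least 5 CPM and 20 UMIs. Between sphenopalatine and stellate neurons 4 of 18 receptor genes were past it, all higher in sphenopalatine neurons (Gabrg3, Gabra5, Grik4, Grik2), where 3.99% of 10458 genes were past it in that direction and 2.86% in the other. Between the first pelvic and the stellate library it was also 4 of 18 (among them Grin3a, Gabrg3 and Grin2c), all higher in pelvic neurons, with 3.92% of all genes past it in that direction and 2.19% in the other. The first pelvic library had 2 of 21 higher than the sphenopalatine one (Grin2c among them; 2.61% of all genes) and 3 lower (Grm7, Gabrg3, Grik2; 2.15% of all genes). In round 2 the second pelvic library had 3 of 18 higher than the lumbar one (Gabrg3 and Grin2c among them; 3.96% of all genes) and Grm7 lower (2.44%). Against the coeliac library it had the same 3 of 19 higher (3.65% of all genes) and Grm7 and Grik1 lower (2.59%). None of 16 was past 3-fold between coeliac and lumbar neurons, where 0.554% and 0.573% of all genes were.

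Gabrg3, a GABA-A gamma subunit, differed between the sympathetic, pelvic and sphenopalatine libraries. It had 45 UMIs or 0.567 CPM (95% interval 0.413 to 0.759) in stellate neurons, 0.945 CPM in coeliac, 1.40 in lumbar, 30.9 and 32.2 in the pelvic libraries and 112 CPM (109 to 114) in sphenopalatine neurons. The sympathetic libraries thus lay below the pelvic ones and those below the sphenopalatine one, without overlap of their counting intervals. The ratio was 197 between sphenopalatine and stellate neurons, 54.4 between the first pelvic and the stellate library and 23.1 between the second pelvic and the lumbar library. A UMI of Gabrg3 was found in 93.6% of sphenopalatine, 43.3% and 52.9% of pelvic and 1.28% to 5.70% of sympathetic neurons, and after thinning every neuron to 4000 UMIs in 36.3%, in 11.3% and 9.46% and in at most 0.296%. The glia of the sphenopalatine library had 10.2 CPM, beside a share of neuronal RNA of 13.1% there.

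Grm7 was lowest in the pelvic ganglion. The ratio of the other library to the pelvic one was 5.83 for sphenopalatine in round 1 and 4.17 for coeliac and 3.42 for lumbar in round 2, and 12.9 CPM in stellate against 4.72 CPM in the first pelvic library was under 3-fold. Grin2c, an NMDA receptor subunit known from cerebellar granule cells, had 8.83 and 6.85 CPM in the pelvic libraries, 0.83 to 0.90 CPM in the 3 sympathetic ones and 2 UMIs in 1903 sphenopalatine neurons. It was thus higher in each pelvic library than in any other library. Grik2 was higher in sphenopalatine than in stellate neurons by a ratio of 9.07, at 17.9 against 1.98 CPM, and Gabra5 by a ratio of 6.30, at 5.16 against 0.82 CPM.

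**Figure D4:**
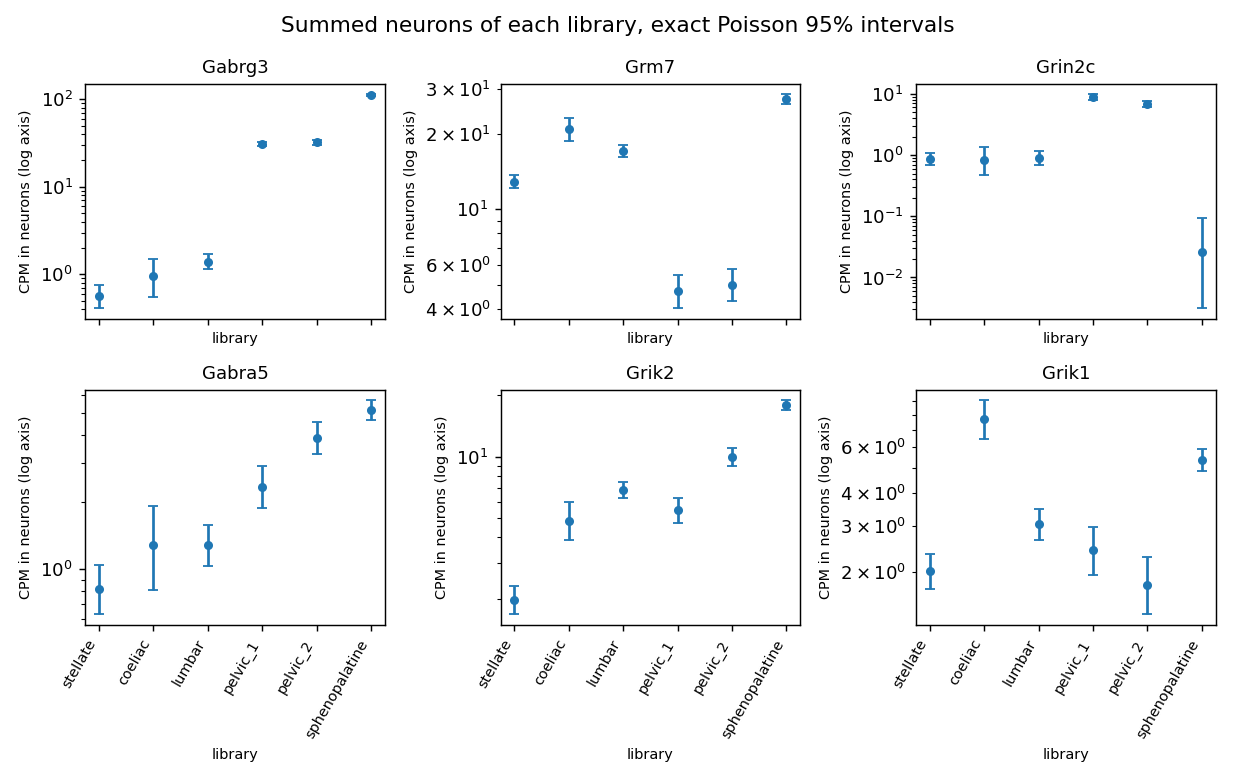
Neuronal level of 6 receptor genes in each library on log axes in CPM, with exact Poisson 95% intervals. Gabrg3 rises from 0.567 to 1.40 CPM in the sympathetic libraries to 30.9 and 32.2 in the pelvic and 112 CPM in the sphenopalatine library, and Grm7 is lowest in the 2 pelvic ones.

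Pelvic neurons are partly noradrenergic and partly cholinergic. Within the 2 pelvic libraries, 154 noradrenergic neurons, with at least 3 UMIs of Th and more of it than of the cholinergic genes, were compared with 1074 cholinergic ones by the same edgeR test, with the library as a block. The first pelvic library held 121 noradrenergic and 760 cholinergic neurons, and the second only 33 and 314. Of 31 receptor genes tested, 6 were higher in noradrenergic neurons (Gria2, Gria3, Gria4, Grm7, Gabra2, Gabra3), where 9.37% of 14168 genes were, and 11 were higher in cholinergic neurons, where 11.5% of all genes were (20.9% in either direction). The median log2 fold change was -0.27 over the 31 genes and 0.00 over all. The spread behind these p-values is that of 2 libraries, and the counts of 6 and 11 became 3 and 6 with DESeq2, 1 and 4 without the replicate block and 2 and 2, of 13 genes tested, when every neuron was thinned to 4000 UMIs. Of the genes given below, Grm7, Gabrg3, Grin2c and Grid1 kept their calls under every alternative that tested them.

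Grm7 was highest in noradrenergic neurons, at 21.3 and 30.5 CPM against 2.10 and 2.09 CPM in cholinergic ones, a log2 difference of 3.59 ± 0.23 (adjusted p = 2.21e-54). Gria2 measured 151 and 221 CPM against 79.9 and 98.7 CPM, a difference of 1.02 ± 0.15 (adjusted p = 1.78e-10). Gria4, at 42.2 and 61.7 against 28.6 and 34.2 CPM, and Gabra3, at 5.12 and 2.91 against 1.52 and 0.726 CPM, did not overlap between the types either, whereas Gria3 did. Without the replicate block the calls of Gria2 (adjusted p = 0.129), Gria4 (0.329), Gabra3 (0.18) and Gria3 (0.442) were lost, and over all alternatives the adjusted p of Gria2 ran from 3.44e-11 to 0.129. With DESeq2 those of Gabra3 (0.0929) and Gria3 (0.127) were lost, and with thinned cells that of Gria4 (0.076). Gabra2, with 19 noradrenergic UMIs, lost its call under 2 of the 6 alternatives that tested it, with adjusted p up to 0.47.

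In the opposite direction, Gabrg3 had 35.5 and 35.7 CPM in cholinergic and 2.46 and 2.38 CPM in noradrenergic neurons, a log2 difference of -3.89 ± 0.26 (adjusted p = 2.54e-46). Grin2c had 10.1 and 7.62 against 1.02 and 0.265 CPM, at -3.71 ± 0.43 (adjusted p = 3.44e-16). Gabbr2 was at 24.8 and 34.3 against 11.3 and 16.4 CPM, a difference of -1.12 ± 0.19 (adjusted p = 6.21e-08). These 3 genes did not overlap between the types, but Gria1, also called, did. Gabra5, the neighbour of Gabrg3, was called in the same direction, at -1.37 ± 0.46 (adjusted p = 0.0159), and lost its call with DESeq2 (adjusted p = 0.452) and without the replicate block (0.269), with adjusted p from 0.00795 to 0.452 over all alternatives. Without the block the calls of Gabbr2 (adjusted p = 0.132), Gria1 (0.685) and Glra2 (0.193) were lost too, and that of Gria1 also with DESeq2 (0.0538) and with thinned cells (0.9). Several called genes rest on few noradrenergic UMIs, with 6 for Grin2c, 11 for Gabra5 and 21 for Gabrg3. Grid1 had 281 UMIs in cholinergic and 1 in noradrenergic neurons and Glra2 47 and 0, so that no fold is given for Grid1 and Glra2. Gabbr1 at 0.04 ± 0.15 and Grin1 at -0.12 ± 0.17 were not called.

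Pelvic neurons were also grouped without the receptor genes, and clusters were named after the types P1 to P4 of the study by marker genes that had been chosen on these samples. Of the 19 receptor genes at 10 CPM or more in a named cluster, 10 differed at least 3-fold between the highest and the lowest cluster, where 14.2% of 9341 genes did. A cluster with Th and Slc6a2 among its leading genes was P3-like (164 neurons), and the other clusters were P2-like (349), P4-like (89) and 2 P1-like ones led by Pyy (317) and by Penk (231). The second pelvic library gave only 33 of the P3-like and 31 of the P4-like neurons. A further 108 neurons, led by Igfbp6, haemoglobin and collagen genes, stayed unnamed. No test was made between clusters, and values are means ± SD over the 2 libraries. At a resolution of 0.6 the P2-like cluster split into 2 parts. The part led by Grp held 114 neurons of the first and 81 of the second pelvic library. The part led by Glb1l2, with Grin2c among its leading genes, held 140 and 14. The 2 libraries thus mixed these parts differently, and the SD of P2-like values also holds that difference.

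The P4-like cluster had the highest level of both main AMPA subunits, with 158 ± 33 CPM (SD, n = 2) of Gria1 and 230 ± 45 CPM of Gria2. The P2-like cluster had only 26.5 ± 5.5 CPM of Gria2, with 30.4 and 22.6 CPM in its 2 libraries, below every other named cluster in either library. Gria1 stood at 65.9 ± 28 CPM there, so its libraries, at 45.8 and 86.0 CPM, each held more Gria1 than Gria2. In the 4 other named clusters Gria2 was the higher of the pair. Grid1 was at 18.2 ± 1.8 CPM in the P4-like cluster, at most 4.37 CPM in the others and without a UMI in the P3-like one.

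Grin2c was at 21.6 ± 0.26 CPM in the P2-like cluster, with a UMI in 62.5% of its neurons, against 4.60 ± 1.3 CPM in the P4-like one and at most 1.17 CPM in the others. For Gabrg3 the order was different: 67.4 ± 7.9 CPM in the P1-like cluster led by Pyy, 44.0 ± 16 CPM in the one led by Penk, 14.0 ± 9.9 CPM in the P2-like, 9.38 ± 0.71 CPM in the P4-like and 2.64 ± 0.36 CPM in the P3-like cluster. The P2-like and P4-like clusters had no fixed order: in the first pelvic library they were at 7.01 and 8.88 CPM, with overlapping counting intervals, and in the second the P2-like one was above the 9.88 CPM of the P4-like one. Grm7 was at 25.4 ± 7.2 CPM in the P3-like cluster and at 6.24 ± 0.36 CPM in the P1-like one led by Pyy. The others held at most 0.634 CPM. Pelvic noradrenergic neurons, chosen by Th, had 21.3 CPM of Grm7 in round 1, where all stellate neurons had 12.9 CPM. In round 2 they had 30.5 CPM, where all coeliac neurons had 20.8 and all lumbar ones 17.1 CPM. Grin3a had its peak in P2-like neurons, at 16.5 and 15.5 CPM in the libraries, and its lowest level in P4-like ones, at 3.18 ± 0.31 CPM.

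**Figure D5:**
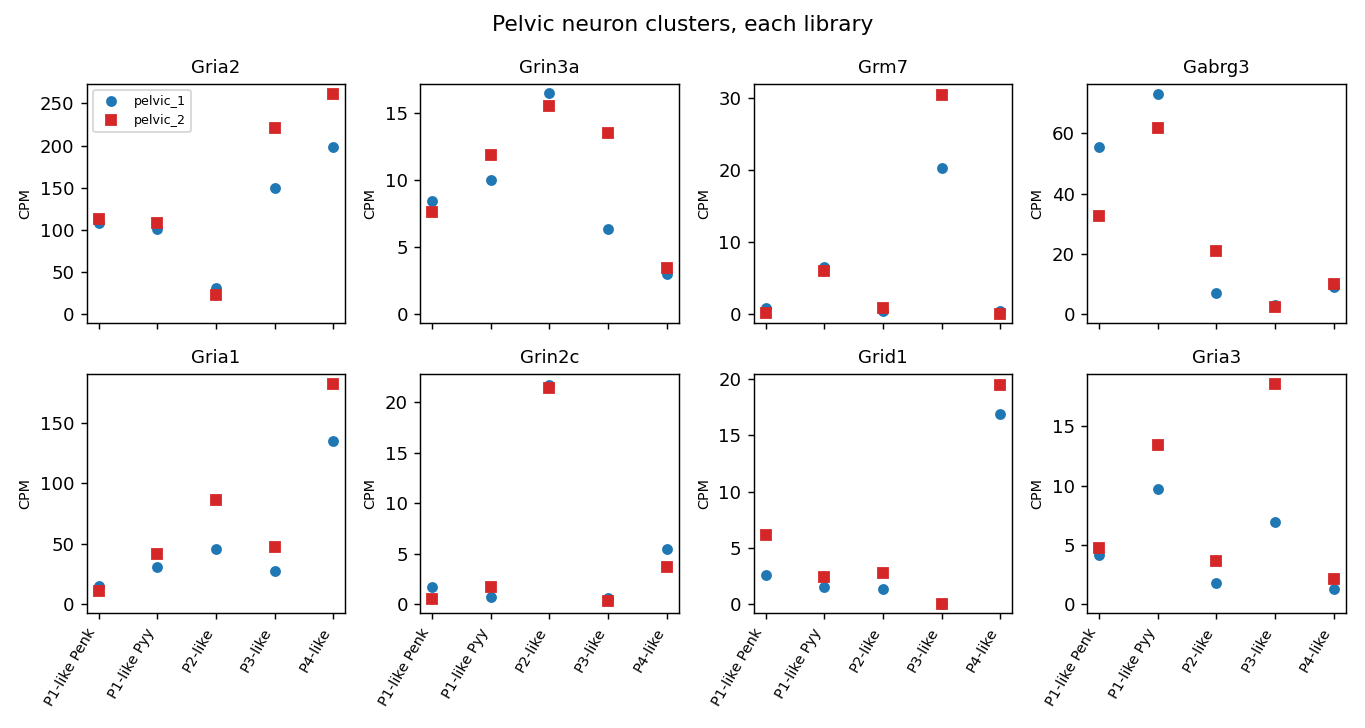
Level in CPM of 8 of the 10 receptor genes that differed at least 3-fold between named pelvic clusters, 1 symbol per pelvic library. Grin2c peaks in the P2-like cluster (21.6 CPM on average), Grid1 in the P4-like (18.2 CPM), Grm7 in the P3-like (25.4 CPM) and Gabrg3 in the P1-like clusters, and Gria2 is lowest in the P2-like one.

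A list of 50 genes of transmitter supply and receptor partners was examined beside the receptors. Of the 38 that passed the filter on low counts, 23 (60.5%) were higher in neurons, where 37.8% of all genes were, and 7 (18.4%) in glia, where 37.4% were. The auxiliary subunits of AMPA receptors were neuronal: Cnih2 reached 177 CPM, Cacng3 97.8 CPM and Cacng4 96.5 CPM in neurons, with log2 fold changes of 3.14 ± 0.20, 3.69 ± 0.28 and 2.23 ± 0.21. Lhfpl4, which holds GABA-A receptors at synapses, was higher in neurons, at 2.60 ± 0.10 and Gphn, which encodes gephyrin, was not called, at -0.13 ± 0.10 (adjusted p = 0.274). Genes of GABA and chloride handling went both ways. Abat, the transaminase that breaks down GABA, was higher in neurons, at 1.23 ± 0.09 on the log2 scale (adjusted p = 7.45e-06). Higher in glia were Dbi, whose product binds the benzodiazepine site, at 7061 to 9284 CPM in glia and a log2 change of -5.23 ± 0.13, the GABA transporter Slc6a11 at -3.16 ± 0.25 and the chloride importer Slc12a2 at -2.54 ± 0.30. The chloride exporter Slc12a5 stayed at or below 3.11 CPM in neurons.

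Genes that load glutamate or GABA into vesicles were near 0. The vesicular glutamate transporters Slc17a6, Slc17a7 and Slc17a8 and the vesicular GABA transporter Slc32a1 were at or below 0.111 CPM in the neurons of every library, and Gad1, which makes GABA, at or below 0.221 CPM. Gad2, which also makes GABA, reached 7.01 CPM in coeliac and 4.56 CPM in stellate neurons.

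In pelvic neurons 5 genes of auxiliary subunits differed by type. Cacng2 (log2 difference -4.44 ± 0.29), the kainate receptor partner Neto1 (-3.74 ± 0.33) and the AMPA receptor partner Gsg1l (-2.60 ± 0.51) were higher in cholinergic neurons, and Cacng3 (2.54 ± 0.17) and Cacng5 (2.62 ± 0.16) in noradrenergic ones. The glutamate transporter Slc1a2, best known from astrocytes, was at 31.8 and 27.3 CPM in pelvic neurons and at most 1.98 CPM in those of any other library, and it was higher in cholinergic than in noradrenergic ones by 4.74 on the log2 scale (-4.74 ± 0.30, adjusted p = 2.9e-52). Without the replicate block Gsg1l lost its call (adjusted p = 0.11) and the other four kept theirs. In all, 5 of the 38 genes (13.2%) were higher in noradrenergic neurons, where 9.37% of all genes were, and 10 (26.3%) in cholinergic ones, where 11.5% were. These counts became 3 and 7 with DESeq2, 2 and 5 without the replicate block and 2 and 4, of 27 tested, with thinned cells.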

How the data were processed

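UMI counts per gene and cell were deposited by the authors as filtered Cell Ranger 6.0.1 matrices aligned to mm10, per the labels. Droplets with more than 1500 and fewer than 11000 genes and under 15% mitochondrial UMIs were kept. Marker means after SCTransform (Seurat 5.3.0, sctransform 0.4.2) chose neurons (above 3, glial mean under 1.15) and glia (1.15 or more, neuronal mean not above 3). Counts were summed per library and class and tested with edgeR 4.0.16 (TMM, filterByExpr, library block, adjusted p under 0.05); DESeq2 1.42.0 was an alternative. Neurons and glia of a library are paired because they come from the same library, as are the pelvic types. Libraries are the replicates, and the p-values rest on the spread between them, which may be technical. For neurons against glia the libraries come from different ganglia, so that spread also holds differences between ganglia. To estimate it, edgeR also draws on the other genes tested. The script was tested on simulated data. Louvain clusters of pelvic neurons used 3000 variable genes, 30 components and a resolution of 0.3. Cells with over 50% of their nearest neighbours among simulated doublets (10.6% of cells) were left out only as an alternative for neurons against glia. Named genes are those at 10 CPM or more in a library or past the threshold. The genes and lists were chosen with earlier results of these data known. Some genes are not reported here.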

Additional observations from a re-analysis of the deposited data

Results flagged for a closer look

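The cells that were neither neurons nor glia entered no comparison. In 3278 of them with fibroblast markers (fibroblast-like cells, cut from a marker score), the lower bound of the counting interval of 4 receptor genes was above the level in the neurons and the glia of every library. Grin2b, an NMDA receptor subunit, was at 33.7 CPM there and at most 1.57 CPM in any neuronal or glial sum. Its fibroblast-like level was 84.9 CPM in sphenopalatine, 54.4 in coeliac, 25.7 in lumbar, 23.0 in stellate and 14.5 and 13.0 CPM in the pelvic libraries. Gabra3 was at 14.6 CPM, with 2.75 CPM in stellate and 20.7 CPM in the second pelvic library as extremes, Grin2a at 6.60 CPM and Gabrq, which encodes the theta subunit of the GABA-A receptor, at 6.52 CPM. Gabra3 and Gabrq are neighbours on the X chromosome (chrX:72432681-72656848 and chrX:72825178-72842602, GRCm38). In endothelial-like, mural-like and macrophage-like cells these 4 genes did not exceed 0.975 CPM. No difference between the libraries was tested.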

How the results depend on the processing

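In neurons against glia, the genes higher in neurons went from 19 of 27 tested to 11 of 15 tested when every cell was thinned to 2000 UMIs, the one alternative that moved a count by over 1.5 times. Leaving out each library gave 18 to 22 genes higher in neurons and 5 to 6 higher in glia, and 9948 to 10374 of all genes called. No called gene reversed under any alternative. In pelvic neurons, noradrenergic against cholinergic, the receptor counts of 6 and 11 became 3 and 6 with DESeq2, 1 and 4 without the replicate block and 2 and 2 with cells thinned to 4000 UMIs, where 13 in place of 31 were tested, and the count over all genes, 2955, became 1521, 577 and 581. In the ganglion comparisons, a fold of 2 gave 8 genes for sphenopalatine against stellate, 8 and 10 for the first pelvic library against stellate and sphenopalatine, 8 for the second pelvic library against coeliac and 3 for coeliac against lumbar. A fold of 5 gave 2 and 3 for the first pelvic library against stellate and sphenopalatine and 2 and 2 for the second against lumbar and coeliac. A minimum of 20 CPM gave 1 for sphenopalatine against stellate, 1 and 2 for the first pelvic library against stellate and sphenopalatine and 1 and 2 for the second against lumbar and coeliac. Cells thinned to 4000 UMIs gave 1 for the second pelvic library against coeliac. Beyond the fewer genes tested after thinning, the cause of these moves was not tested. The pelvic cluster count of 10 was 8 to 10 without either pelvic library. Depth limits what is said of the 33 genes below 10 CPM.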
